A study of Mus musculus with 18 samples.

Results

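The growth hormone, STAT5 and IGF axis was examined in bulk RNA sequencing of mouse liver. Its 10 genes were chosen by symbol for their known roles, by a rule that does not use their values, although earlier results of these data were known. All 10 were among the 15052 genes of the deposited table. They are the receptor gene *Ghr*, the signal transducers *Stat5a* and *Stat5b*, the repressor *Bcl6*, the feedback inhibitors *Socs2* and *Cish*, the hormone gene *Igf1*, its carrier subunit *Igfals* and the binding proteins *Igfbp1* and *Igfbp3*.

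Pituitary growth hormone binds its receptor on hepatocytes and activates the kinase JAK2, which phosphorylates STAT5A and STAT5B. In the nucleus these factors drive *Igf1*, *Igfals*, *Socs2* and *Cish*, while BCL6 binds many of the same sites and opposes them. The secreted IGF-1 circulates bound to IGFBP3 and IGFALS, and IGFBP1, a binding protein induced by fasting and stress and repressed by insulin, limits its action. In rodents, growth hormone is released in sharper pulses in males than in females, and through STAT5 this pattern sets most sex differences of liver gene expression.

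Polyadenylated RNA was sequenced from the livers of 18 mice in the chronic-plus-binge ethanol model, in which a liquid ethanol diet is followed by a single dose. The 9 pair-fed mice were 4 WT and 5 *Apoe* KO, the 9 EtOH-fed mice 5 WT and 4 *Apoe* KO, and their labels read Ctrl or EtOH for the agent and WT or ApoE for the genotype. *Apoe* encodes apolipoprotein E, and the KO is a germline loss that affects every cell rather than the liver alone. All mice were 10 to 12 weeks old and took a liquid diet for 5 days of acclimation. For the next 10 days the diet of EtOH-fed mice held 5% (v/v) ethanol, followed by a gavage of 5 g/kg ethanol. Pair-fed mice received an isocaloric control diet for the same 10 days and a gavage of 9 g/kg dextrin maltose, and all livers were taken 9 h after the gavage.

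The values per mouse had been scaled by the authors to totals between 32267493 and 32292618, which do not give the sequencing depth. In 8 mice the low values fell on resolvable steps of 1.68 to 5.77 units per read, which corresponds to 5.6 to 19.2 mega-reads (M) on genes. They were pair-fed WT mice 1, 2 and 4, pair-fed *Apoe* KO mice 1 and 4, and EtOH-fed *Apoe* KO mice 2, 4 and 5. No EtOH-fed WT mouse was among them. Of the whole numbers from 1 to 60, pair-fed WT mice used 10, 19, 54 and 35, and EtOH-fed WT mice 60, 60, 60, 46 and 60. Pair-fed *Apoe* KO mice used 15, 60, 44, 35 and 60, and EtOH-fed *Apoe* KO mice 60, 25, 14 and 15. Unused numbers mark a coarser step and so, at nearly equal totals, fewer reads. Depth was thus uneven, and greater in most EtOH-fed than in most pair-fed WT mice. Its part in the comparisons was not tested. The lowest value of any of the 10 genes was 240, so that none was near the limit of detection. *Apoe* was lower in the KO mice without overlap, at 0.0354-fold of WT in pair-fed mice (log2 difference −4.82) and at 0.0539-fold in EtOH-fed mice (−4.21). Of 8 hepatocyte markers 7 were listed, none of them at 0, and their summed value lay between 2334763 and 3863054 in all mice. All labels read female, whereas the methods of the study allow either sex, and EtOH-fed *Apoe* KO mouse 1 went against its label. In it *Xist*, the RNA that silences an X chromosome, was at 826 against 15227 to 30379 in the other 17 mice. Its Y-linked *Ddx3y* was at 1077 against 2 to 118 elsewhere, and *Eif2s3y* at 898 against 2 to 86. Counts of calls in the comparisons that involve this mouse are given also without it where they changed.

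RefSeq promoter windows of GRCm38.p6, from 250 bases before to 50 after each annotated start, were searched for the palindromic core of a STAT5 site, TTCNNNGAA, which reads the same on both strands. The core was in 8.30% of 32851 windows of all genes and in at least 1 window of 9.55% of 27025 genes. Of the 10 genes, 9 had a window, *Socs2* had none, and *Cish*, *Bcl6* and *Igfals* held the core, in 5 of 15 windows. For each of these 3 genes, the window that held most cores, or the later one on the chromosome where they tied, is shown from 250 bases before to 20 after the start, with the core in capitals. *Cish* lies on the plus strand (chr9:107296409-107296678), *Bcl6* on the minus strand (chr16:23981264-23981533) and *Igfals* on the plus strand (chr17:24877981-24878250). All 3 starts lie inside the bounds that GENCODE gives for the gene.
Cish: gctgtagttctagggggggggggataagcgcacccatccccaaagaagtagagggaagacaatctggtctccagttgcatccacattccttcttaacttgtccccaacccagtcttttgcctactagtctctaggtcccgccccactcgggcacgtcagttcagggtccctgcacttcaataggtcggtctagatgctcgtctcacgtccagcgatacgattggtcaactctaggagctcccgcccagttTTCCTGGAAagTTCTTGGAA
Bcl6: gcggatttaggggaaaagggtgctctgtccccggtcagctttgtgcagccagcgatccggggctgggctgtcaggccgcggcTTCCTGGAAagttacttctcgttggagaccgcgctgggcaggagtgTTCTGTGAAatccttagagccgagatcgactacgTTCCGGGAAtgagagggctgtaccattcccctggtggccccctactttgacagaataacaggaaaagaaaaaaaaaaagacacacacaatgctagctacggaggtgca
Igfals: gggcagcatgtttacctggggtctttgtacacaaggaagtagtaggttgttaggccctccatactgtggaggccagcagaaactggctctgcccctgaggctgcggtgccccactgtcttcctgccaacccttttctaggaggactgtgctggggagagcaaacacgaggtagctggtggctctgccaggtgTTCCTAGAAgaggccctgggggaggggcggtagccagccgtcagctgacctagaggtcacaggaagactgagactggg
The *Cish* stretch holds 2 cores side by side at the start, whereas at least 2 cores were present in 0.457% of all windows. The *Bcl6* stretch holds 3, a number reached or passed in 0.0335% of all windows, and *Bcl6* is itself a gene that STAT5 is known to repress. This stretch was picked for its cores over another *Bcl6* window that holds 1, whereas the share counts every window without such a choice. The *Igfals* stretch holds 1. These matches are letters in a reference sequence, and no binding was measured.

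Groups were compared by limma on log2(value + 1), with Benjamini-Hochberg adjustment over the 15052 genes, and a gene was called at an adjusted p under 0.05. Ethanol feeding changed 1 of the 10 genes in WT mice, where *Igfbp1* rose, beside 12.7% of all genes. In *Apoe* KO mice it changed 2, with *Ghr* and *Igfals* lower, beside 23.2% of all genes. Between the genotypes, *Igfbp1* alone was called in pair-fed mice, higher in *Apoe* KO, beside 1.73% of all genes, and 0 of 10 in EtOH-fed mice, beside 4.69%. The interaction of diet and genotype also called 0 of 10, beside 2.84%. The adjusted calls of the 10 with ethanol were thus close to the background shares, and the results that follow concern single genes. At an unadjusted p under 0.05, ethanol feeding gave 9 of the 10 genes in WT mice, beside 28.1% of all genes, and 6 in *Apoe* KO mice, beside 35.9%. The pair-fed genotypes gave 4 of 10 on that measure, beside 19.9%, the EtOH-fed genotypes 4, beside 18.9%, and the interaction 3, beside 16.3%. Without EtOH-fed *Apoe* KO mouse 1, ethanol feeding in KO mice called 3 of the 10, the third being *Igfbp3*. Over all genes 2377 higher and 943 lower were called there, and the EtOH-fed and interaction counts of the 10 stayed at 0. The median log2 difference of the 10 was −0.45 with ethanol in WT and −0.23 in *Apoe* KO mice, beside −0.01 and 0.13 over all genes, and 8 and 7 of the 10 were negative (8 and 8 with size factors). Between the genotypes it was 0.04 in pair-fed mice and −0.001 in EtOH-fed mice. The 4 comparisons share mice pairwise and are not independent of each other.

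On the deposited scale the median of all genes lay 0.13 above 0 (log2) in the KO ethanol comparison and 0.11 above 0 in both the EtOH-fed genotype comparison and the interaction. With median-of-ratios size factors these medians were 0.00, −0.02 and −0.03. The split of the calls moved with it, from 2446 higher and 1042 lower genes to 1656 and 1607 in KO mice given ethanol. Relative to the median gene, the KO ethanol differences of *Ghr* and *Igfals* were −0.72 and −1.08 in place of the −0.59 and −0.95 reported below. With size factors *Socs2* (−0.99, adjusted p = 0.0319, limma) and *Cish* (−0.95, adjusted p = 0.0272, limma) were also called there.

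**Figure D1:**
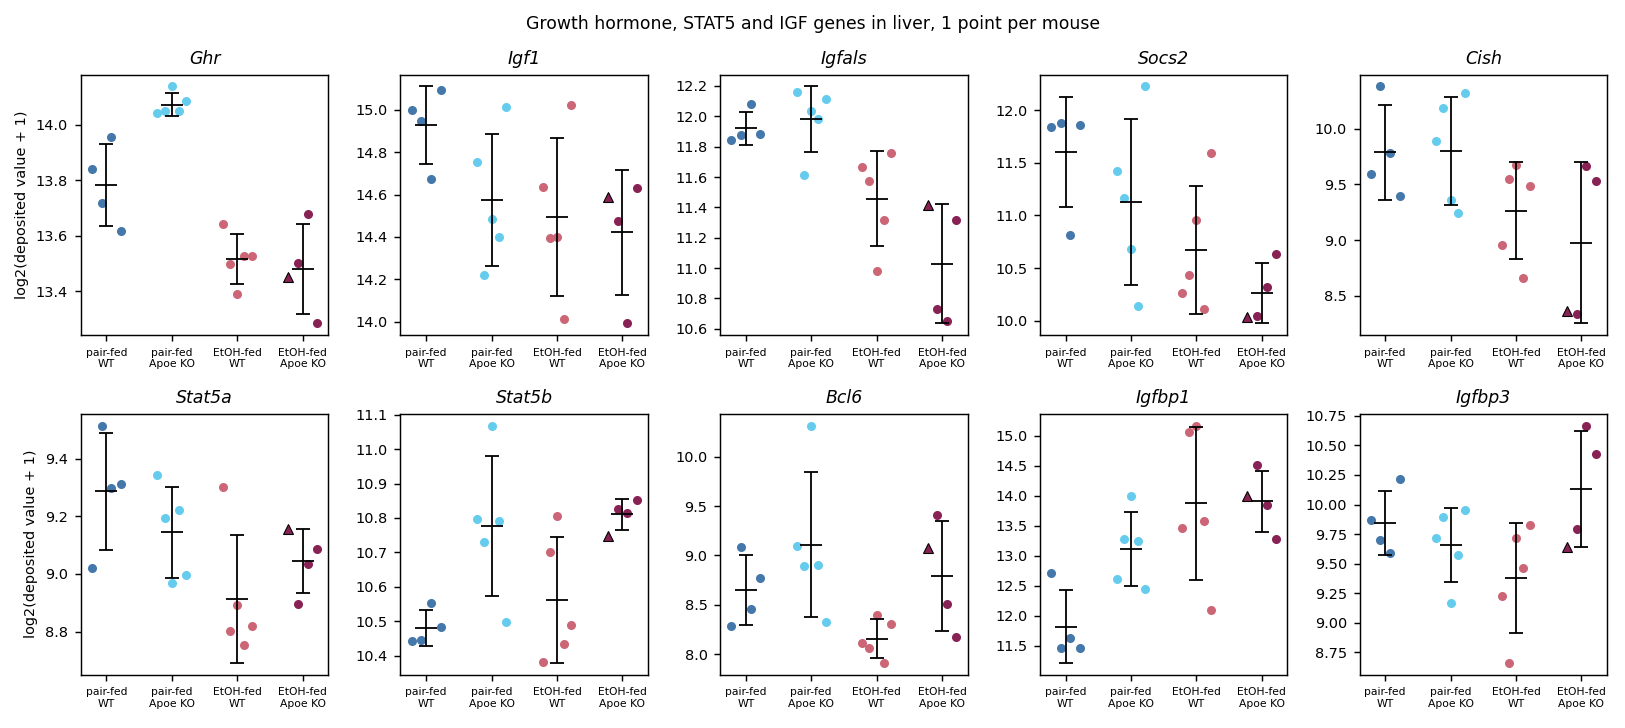
Values of the 10 genes on a log2(deposited value + 1) scale, 1 panel per gene with its own vertical range, against the 4 groups. Points are mice, bars the mean ± SD, and the triangle EtOH-fed *Apoe* KO mouse 1. All 5 pair-fed *Apoe* KO points lie above every other point for *Ghr*, and the EtOH-fed points lie below the pair-fed points in both genotypes for *Igfals*.

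*Ghr*, the growth hormone receptor, is a minus-strand gene (chr15:3317760-3583492, GRCm38). Its value was 14653, 13487, 15889 and 12559 in pair-fed WT mice and 16853, 16958, 18018, 16948 and 17359 in pair-fed *Apoe* KO mice. With ethanol it was 12769, 11574, 10742, 11808 and 11805 in WT mice and 11209, 11610, 13113 and 9978 in *Apoe* KO mice, which are numbered 1, 2, 4 and 5. The pair-fed *Apoe* KO mice were the highest of all 18, and the EtOH-fed groups overlapped each other. In *Apoe* KO mice ethanol lowered *Ghr* from 17227 ± 483 (SD, n = 5) to 11477.5 ± 1293 (SD, n = 4), a 0.663-fold level without overlap. The log2 difference was −0.59 with a 95% interval from −0.79 to −0.40 (SE 0.09, adjusted p = 0.0005931, limma), and it stayed called without each single mouse. In WT mice the difference was −0.27, from 14147 ± 1443 (SD, n = 4) to 11739.6 ± 723 (SD, n = 5), and was not called (adjusted p = 0.1071, limma). Here as in all bulk values, fewer cells of a type and less RNA per cell cannot be told apart.

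The pair-fed genotypes did not overlap in *Ghr* either, with a 1.22-fold level in *Apoe* KO mice, but the difference of 0.29 was not called (adjusted p = 0.1178, limma). In EtOH-fed mice the genotypes differed by −0.04 (95% interval −0.26 to 0.19). The ethanol effect in KO mice minus that in WT mice was −0.33 (adjusted p = 0.1934, limma), so that a difference between the genotypes in the response of *Ghr* was not shown. Among all genes, 20% did not overlap between diets in KO mice and 7.03% between pair-fed genotypes.

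*Stat5a* and *Stat5b*, the transducers, are neighbours on chromosome 11 (chr11:100859351-100885169 and chr11:100780731-100850724), with a gap of 8626 bases. They share 608 stretches of 50 bases in their exons, 8.21% of those of *Stat5a* and 11.0% of those of *Stat5b*. A read that lies wholly within such a stretch cannot be assigned to 1 gene by its own sequence. How many reads this concerns was not tested. Neither was called in any comparison. *Stat5b* ran from 1389 to 1502 in WT and 1446 to 2146 in *Apoe* KO mice when pair-fed, and 1333 to 1790 in WT and 1718 to 1849 in *Apoe* KO mice when EtOH-fed. It was thus the least variable in the first and last of these groups, and the *Apoe* KO means were 1.23-fold (pair-fed) and 1.19-fold (EtOH-fed) of the WT means on the log scale. *Stat5a* ran from 519 to 730 in pair-fed WT mice and from 431 to 630 in EtOH-fed WT mice, a difference of −0.37 (adjusted p = 0.1096, limma). That difference passed the threshold without EtOH-fed WT mouse 1, the highest of its group (−0.47, adjusted p = 0.044, limma). Other single omissions took its adjusted p up to 0.274 (limma).

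*Bcl6*, on the minus strand of chromosome 16 (chr16:23965052-23988852), is higher in male than in female mouse liver and opposes STAT5. Its value was 311, 542, 351 and 437 in WT and 546, 476, 1274, 479 and 319 in *Apoe* KO mice when pair-fed, and 275, 266, 337, 240 and 315 in WT and 538, 680, 364 and 288 in *Apoe* KO mice when EtOH-fed. Pair-fed *Apoe* KO mouse 3 stood far above the rest, EtOH-fed WT mice were low and even, and all groups overlapped. In the 8 mice in which 1 read could be sized, the lowest number of reads behind any value of the 10 genes, about 53.9, belongs to the 311 of pair-fed WT mouse 1, while the lowest value, 240, is from a mouse in which it could not. The largest *Bcl6* difference, 0.64 between the EtOH-fed genotypes (95% interval 0.15 to 1.12), was not called (adjusted p = 0.1318, limma), nor was the −0.49 with ethanol in WT mice (adjusted p = 0.0827, limma). The latter passed without pair-fed WT mouse 1 (−0.62, adjusted p = 0.0446, limma), whereas other single omissions took its adjusted p up to 0.239 (limma).

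*Socs2* and *Cish* encode SOCS-family proteins that STAT5 induces and that damp growth hormone signalling in turn. *Socs2* (chr10:95385362-95417180) was at 3676, 3773, 1800 and 3710 in WT and 2741, 2294, 1640, 1127 and 4790 in *Apoe* KO mice when pair-fed, and 1228, 1378, 1991, 1101 and 3086 in WT and 1045, 1057, 1277 and 1592 in *Apoe* KO mice when EtOH-fed. A single mouse departed from the rest of pair-fed WT (number 3, low) and of EtOH-fed WT (number 5, high), and the diets overlapped in both genotypes. Ethanol feeding was accompanied by a log2 difference of −0.93 in WT mice (SE 0.29, adjusted p = 0.0511, limma) and of −0.87 in *Apoe* KO mice (adjusted p = 0.05782, limma), both just outside the threshold. The WT difference was called without pair-fed WT mouse 3 (−1.19, adjusted p = 0.0161, limma) or EtOH-fed WT mouse 5 (−1.16, adjusted p = 0.00723, limma). The KO difference was called without pair-fed *Apoe* KO mouse 4 (−1.11, adjusted p = 0.00956, limma), the KO mouse with the most residual *Apoe* (108651 against 8586 to 61572 in the other 8). Other single omissions weakened both differences, with an adjusted p up to 0.137 in WT and 0.124 in *Apoe* KO mice (limma).

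*Cish* (chr9:107296026-107302784), whose promoter cores are shown above, ran from 671 to 1330 in WT and 606 to 1273 in *Apoe* KO mice when pair-fed, and 404 to 813 in WT and 322 to 811 in *Apoe* KO mice when EtOH-fed. In the last group mice 1 and 2 were low, at 329 and 322, and mice 4 and 5 high, at 811 and 738. The ethanol difference was −0.52 in WT mice (adjusted p = 0.1529, limma) and −0.82 in *Apoe* KO mice (adjusted p = 0.06392, limma), and neither was called. Without mouse 4 of the EtOH-fed *Apoe* KO group the latter was called, as it was without mouse 5 or pair-fed *Apoe* KO mouse 4, at up to −1.05. Over the other omissions it weakened to as little as −0.61, with an adjusted p up to 0.173 (limma). The genotypes differed by 0.01 in pair-fed and by −0.29 in EtOH-fed mice, and the sign of the pair-fed value turned with sample weights (−0.17).

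*Igf1* (chr10:87858265-87937042), the main mediator of growth hormone, had the highest level per kb of exon among the 10 genes in pair-fed WT mice, 3166 units per kb, ahead of *Igfbp1* (2550) and *Ghr* (1563). *Bcl6* had the lowest, 61.2 units per kb. The *Igf1* value was 32764, 31570, 26098 and 35009 in WT and 27662, 19070, 22890, 21605 and 33062 in *Apoe* KO mice when pair-fed, and 25460, 21530, 21625, 16517 and 33334 in WT and 24599, 22810, 16298 and 25381 in *Apoe* KO mice when EtOH-fed. Pair-fed WT mice were the highest as a group, but mouse 5 of the pair-fed *Apoe* KO group and mouse 5 of the EtOH-fed WT group were within their range, and the groups overlapped except EtOH-fed *Apoe* KO, all below pair-fed WT. None of the comparisons called *Igf1*. The ethanol difference was −0.43 in WT mice (95% interval −0.81 to −0.06, adjusted p = 0.1204, limma), and it was called without EtOH-fed WT mouse 5 (−0.57, adjusted p = 0.0236, limma). Other single omissions took its adjusted p up to 0.252 (limma). In *Apoe* KO mice the ethanol difference was −0.15, with an interval from −0.51 to 0.20. Between the EtOH-fed genotypes *Igf1* differed by −0.07, with an interval from −0.47 to 0.33.

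*Igfals* (chr17:24865997-24882010) encodes the acid-labile subunit that holds IGF-1 and IGFBP3 in the circulation. It was at 3671, 3758, 4339 and 3777 in WT and 4580, 3125, 4189, 4041 and 4421 in *Apoe* KO mice when pair-fed, and 3245, 3050, 2018, 2545 and 3460 in WT and 2725, 1702, 1605 and 2549 in *Apoe* KO mice when EtOH-fed. Every EtOH-fed mouse lay below every pair-fed mouse of its genotype. In *Apoe* KO mice *Igfals* fell from 4071 ± 568 (SD, n = 5) to 2145 ± 574 (SD, n = 4), a 0.517-fold level with a log2 difference of −0.95 (95% interval −1.30 to −0.60, adjusted p = 0.001237, limma), called also without each single mouse. In WT mice it was 0.725-fold, from 3886 ± 305 (SD, n = 4) to 2864 ± 581 (SD, n = 5), with a difference of −0.46 just outside the threshold (adjusted p = 0.05181, limma). Without EtOH-fed WT mouse 5 that difference was called (−0.54, adjusted p = 0.0253, limma), whereas other single omissions took its adjusted p up to 0.115 (limma). Among all genes, 14.4% did not overlap between the diets in WT mice.

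The ethanol effect on *Igfals* in KO mice minus that in WT mice was −0.49 (adjusted p = 0.3069, limma), and the EtOH-fed genotypes differed by −0.43 (adjusted p = 0.2313, limma). With the replicate number as a block the latter was called (−0.55, adjusted p = 0.0182, limma). That fit kept only numbers present in both groups, and so left out EtOH-fed WT mouse 3. Without the block, no single omission called the difference (adjusted p at least 0.105, limma). The medians of the summed hepatocyte markers were 3131844 in pair-fed and 2807131.5 in EtOH-fed *Apoe* KO mice and 3165928.5 and 3193364 in the WT groups, with overlapping ranges. Markers of other cells rose with ethanol in *Apoe* KO mice, with 7 of 8 sinusoidal endothelial, 6 of 7 stellate (5 without mouse 1) and 3 of 6 Kupffer cell markers called higher, while *Ghr* and *Igfals* fell. Infiltrating macrophage, neutrophil and cholangiocyte markers gave 1 of 6, 0 of 3 and 1 of 5 there. Of all genes 23.2% were called in that comparison, higher or lower. In WT mice ethanol raised 5 of 8 endothelial, 0 of 7 stellate and 0 of 6 Kupffer markers. It lowered 2 Kupffer markers there, beside 12.7% of all genes called. The part of these cells in the *Ghr* and *Igfals* results was not tested.

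**Figure D2:**
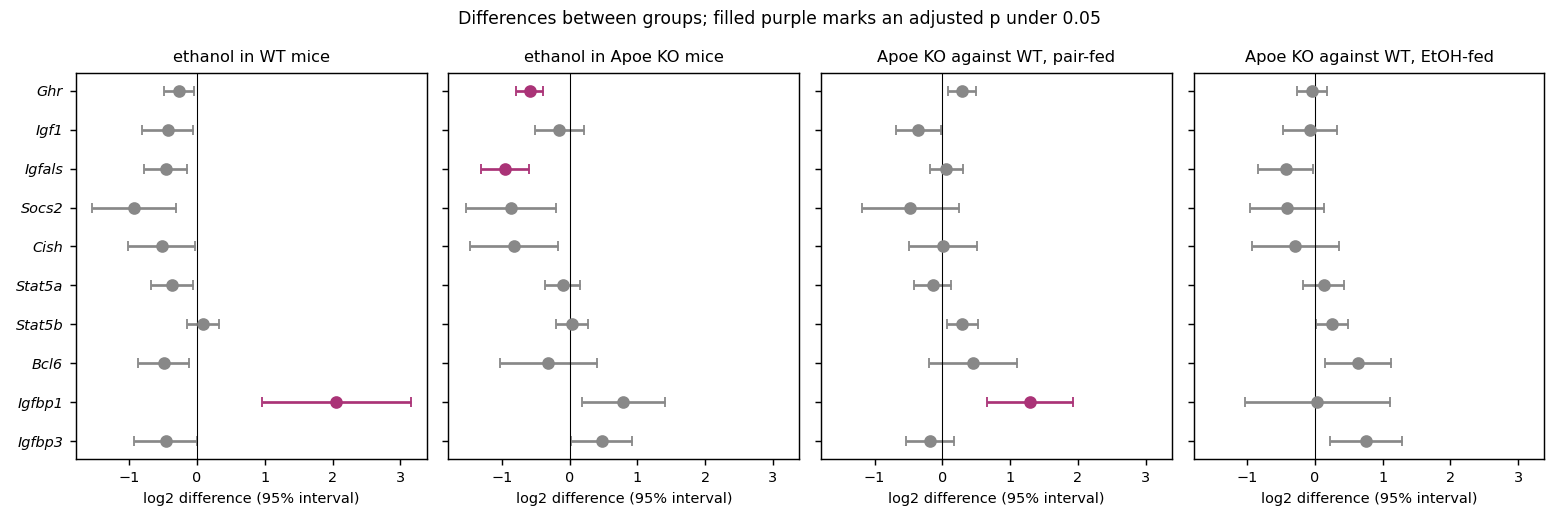
Log2 differences between group means with 95% intervals (horizontal axis) for the 10 genes (rows) in the 4 comparisons (panels), where purple points passed an adjusted p of 0.05. *Igfbp1* stands to the right of 0 at 2.05 in WT mice given ethanol and at 1.29 in pair-fed *Apoe* KO mice, and *Ghr* and *Igfals* to the left in KO mice given ethanol.

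*Igfbp1* (chr11:7197782-7202546) showed the largest differences. Its value was 6730, 2836, 3152 and 2834 in WT and 6229, 9884, 16353, 9676 and 5602 in *Apoe* KO mice when pair-fed, and 11307, 34012, 36725, 12249 and 4365 in WT and 16298, 23438, 14644 and 9943 in *Apoe* KO mice when EtOH-fed. Pair-fed WT mice were low except mouse 1, EtOH-fed WT mice were spread most widely, and mouse 5 of that group lay within the pair-fed WT range. Ethanol raised *Igfbp1* in WT mice from 3888 ± 1901 (SD, n = 4) to 19732 ± 14627 (SD, n = 5), 4.15-fold on the log scale. The log2 difference was 2.05 (SE 0.51, 95% interval 0.95 to 3.15, adjusted p = 0.01969, limma). Without pair-fed WT mouse 2 or 4 it was 1.935 in both cases and no longer called (adjusted p = 0.0608 and 0.0622, limma).

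In pair-fed mice *Igfbp1* was 2.45-fold higher in *Apoe* KO, at 9549 ± 4273 (SD, n = 5), than in WT mice (log2 difference 1.29, 95% interval 0.65 to 1.93, adjusted p = 0.0455, limma). This call was lost with a pseudocount of 0.1 (adjusted p = 0.0542, limma), in a fit on all 4 groups (adjusted p = 0.142, limma) and when any mouse other than WT mouse 1 or *Apoe* KO mouse 5 was left out (adjusted p = 0.057 to 0.154, limma). In *Apoe* KO mice ethanol was accompanied by a difference of 0.79 (adjusted p = 0.0595, limma), which was called without pair-fed mouse 3 (1.02, adjusted p = 0.0115, limma) or EtOH-fed mouse 5 (1.003, adjusted p = 0.0346, limma). Other single omissions took its adjusted p up to 0.166 (limma). The EtOH-fed genotypes differed by 0.04, with an interval from −1.04 to 1.11. The interaction was −1.26 (95% interval −2.63 to 0.12, adjusted p = 0.3536, limma), so that a smaller ethanol response in *Apoe* KO mice was not shown.

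*Igfbp3* (chr11:7206086-7213923) lies 3539 bases from *Igfbp1* on the opposite strand, and in liver it is made chiefly by non-parenchymal cells. Its value was 933, 831, 769 and 1190 in WT and 842, 952, 575, 759 and 988 in *Apoe* KO mice when pair-fed, and 597, 404, 841, 704 and 909 in WT and 796, 888, 1625 and 1377 in *Apoe* KO mice when EtOH-fed. Mice 4 and 5 of the EtOH-fed *Apoe* KO group were the highest of all 18, and the groups overlapped. The signs of its ethanol differences were opposite, −0.46 in WT (adjusted p = 0.1724, limma) and 0.47 in *Apoe* KO mice (adjusted p = 0.1243, limma), and the interaction of 0.94 (95% interval 0.26 to 1.62) was not called (adjusted p = 0.1321, limma). The EtOH-fed genotypes differed by 0.75, or 1.69-fold (adjusted p = 0.1081, limma), and with the replicate number as a block this difference was called (0.84, adjusted p = 0.00922, limma). The block fit left out EtOH-fed WT mouse 3, whose number the other group lacks. Without the block, no single omission called the genotype difference (adjusted p at least 0.0702, limma). Without mouse 1 of the EtOH-fed *Apoe* KO group the KO ethanol difference was called (0.64, adjusted p = 0.0455, limma), whereas other single omissions took its adjusted p up to 0.343 (limma).

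Markers of other liver cells were set beside *Igfbp3* as group ranges only, and no relation over single mice was computed. The summed value of 7 stellate and fibroblast markers was 18113 to 33135 in *Apoe* KO and 10596 to 17409 in WT mice when EtOH-fed. That of 6 Kupffer cell markers was 12741 to 24727 and 5304 to 9823, and that of 8 sinusoidal endothelial markers 10424 to 16711 and 11170 to 16101. The stellate and Kupffer sums did not overlap between the EtOH-fed genotypes, the endothelial sums did, no marker was at 0 throughout, and their part in the *Igfbp3* values was not tested.

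Across the 18 mice, deviations from the group means were compared for all 45 pairs of the 10 genes, with 100000 permutations within groups and Benjamini-Hochberg adjustment over the pairs. None passed an adjusted p of 0.05. The 4 pairs with an unadjusted permutation p under 0.05 for both Pearson and Spearman correlation are described, a rule set after the values were seen. *Igf1* and *Socs2* had a Pearson r of 0.669 (permutation p = 0.00758, adjusted p = 0.171) and a Spearman rho of 0.690 (permutation p = 0.0068, adjusted p = 0.123), with r at 0.544 without the 2 farthest mice, 0.790 within pair-fed and 0.596 within EtOH-fed mice. *Socs2* and *Cish* had an r of 0.602 (permutation p = 0.00747, adjusted p = 0.171) and a rho of 0.604 (permutation p = 0.00701, adjusted p = 0.123), with r at 0.501 without the 2 farthest mice and at 0.626 and 0.625 within the diets. *Igf1* and *Igfals* had an r of 0.609 (permutation p = 0.0242, adjusted p = 0.273) and a rho of 0.649 (permutation p = 0.0109, adjusted p = 0.123), with 0.565 without the 2 farthest mice and 0.488 and 0.672 within the diets. *Socs2* and *Igfbp3* had an r of 0.585 (permutation p = 0.0122, adjusted p = 0.183) and a rho of 0.614 (permutation p = 0.00828, adjusted p = 0.123), with 0.628 without the 2 farthest mice and 0.641 and 0.623 within the diets. In 4 more pairs 1 of the measures alone had such a p, namely *Stat5b* with *Igfbp1* (r = 0.618, rho = 0.511) and with *Bcl6* (0.567 and 0.309), and *Igfbp1* with *Igf1* (−0.459 and −0.593) and with *Igfals* (−0.496 and −0.575). Without the 2 farthest mice the r of *Stat5b* and *Bcl6* was 0.0663, so that it rests on those mice. Pair-fed *Apoe* KO mouse 5 had the highest *Igf1*, *Socs2* and *Cish* of its group. EtOH-fed WT mouse 5 had the highest *Igf1*, *Socs2* and *Igfals* of its group and the lowest *Igfbp1*.

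**Figure D3:**
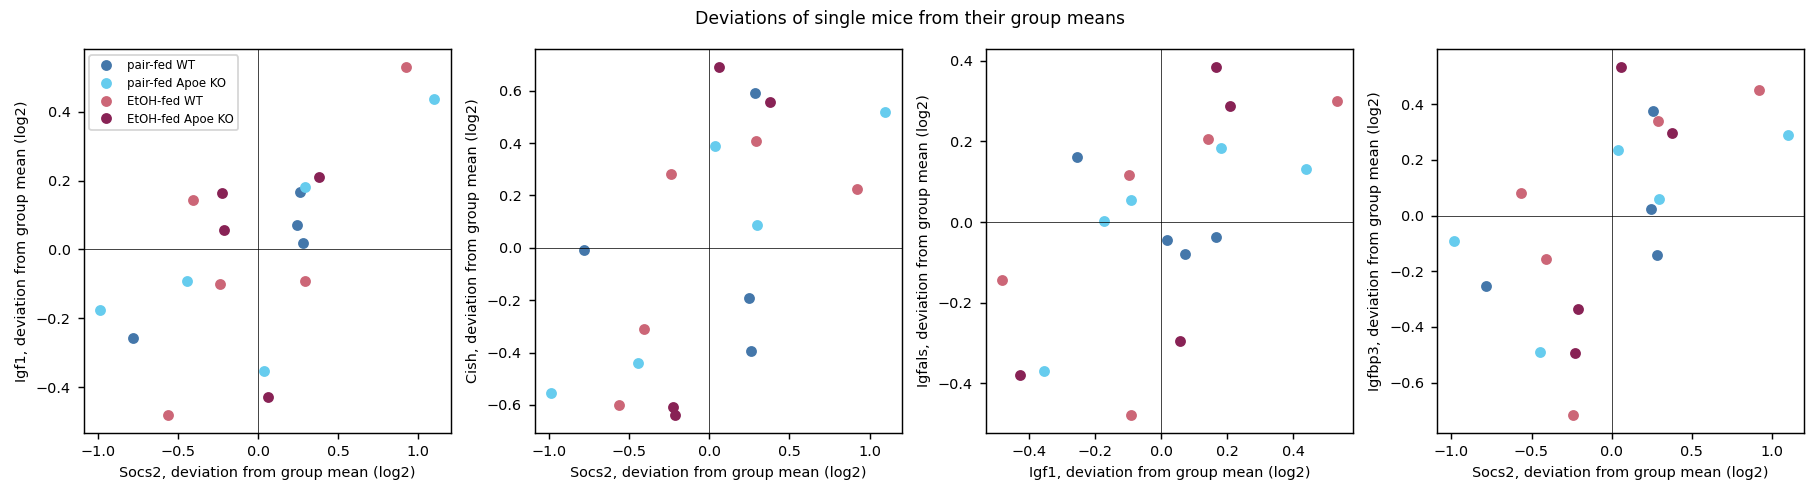
Deviations of single mice from their group means (log2) for *Igf1* against *Socs2*, *Cish* against *Socs2*, *Igfals* against *Igf1* and *Igfbp3* against *Socs2*, 1 point per mouse, coloured by group. The points rise from lower left to upper right in the 4 panels, with r at 0.669, 0.602, 0.609 and 0.585, and none of the 4 passed the adjusted threshold.

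Over the 18 mice, without regard to group, the genes whose log2 values were most like those of *Igf1* were *AA465934* (r = 0.932), *Cluap1* (0.899), *Fis1* (0.890), *Igsf5* (0.874) and *Csnk2b* (0.868). Those most like *Igfbp1* were *Tat* (0.855), *Sgk1* (0.841), *Ypel2* (0.839), *Crkl* (0.832) and *Dennd4a* (0.830). These are the highest of 15052 correlations each and are given as a description.

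Among 15 partners of the receptor, 14 were listed. By limma, ethanol changed 0 of them in WT mice (8 of 14 at an unadjusted p under 0.05, beside 28.1% of all genes). In *Apoe* KO mice it changed 4 of 14, 2 higher and 2 lower, beside 23.2% of all genes. The list median there was 0.17 beside 0.13 for all genes. *Socs3*, a feedback inhibitor induced chiefly by STAT3, fell in *Apoe* KO mice (log2 difference −1.32), as did *Prlr*, the prolactin receptor (−0.56). The adaptor gene *Grb10* rose by 1.04 and the phosphatase gene *Ptpn2* by 0.43 there, the latter not called without mouse 1 of the EtOH-fed *Apoe* KO group (0.41, adjusted p = 0.0748, limma). *Jak2* itself had differences of −0.24 in WT and −0.25 in *Apoe* KO mice and was not called. With size factors the KO calls were 1 higher and 2 lower. Between the EtOH-fed genotypes 1 partner was called, beside 4.69% of all genes. It was *Sirpa*, a myeloid membrane receptor, 0.88 higher in *Apoe* KO mice, where the Kupffer marker sums given above also lay higher. Of the partners 0 were called between the pair-fed genotypes (1 of 14 at an unadjusted p under 0.05, beside 19.9% of all genes).

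Of 17 genes of the IGF and insulin receptor system 13 were listed. By limma ethanol changed 0 in WT mice (4 of 13 at an unadjusted p under 0.05, beside 28.1% of all genes). It changed 5 of 13 in *Apoe* KO mice, beside 23.2% of all genes. Between the pair-fed genotypes 0 were called by limma, with 4 of 13 at an unadjusted p under 0.05, beside 19.9% of all genes. In KO mice given ethanol *Igf1r*, the IGF-1 receptor (0.88), *Igfbp6* (1.76), *Igfbp7* (0.85) and *Htra1*, a protease that cleaves IGF binding proteins (1.44), rose, while *Lrp1*, an endocytic receptor, fell by 0.64. With size factors the split was 3 higher and 2 lower, in place of 4 and 1. *Htra1* was also higher in *Apoe* KO mice when both genotypes were EtOH-fed (1.28), but was not called there without mouse 1, when 0 of 13 passed. The summed endothelial markers were at 5902 to 8731 in pair-fed and at 10424 to 16711 in EtOH-fed *Apoe* KO mice, and the list median of their log2 differences was 0.99. The stellate sums were at 10705 to 14441 and at 18113 to 33135, and neither sum overlapped between the diets. The Kupffer sums, 8522 to 16943 and 12741 to 24727, did overlap, and the part of these cells in the IGF list was not tested. In WT mice the endothelial sums, 9005 to 10106 pair-fed and 11170 to 16101 EtOH-fed, did not overlap either. The WT stellate sums, 10470 to 15906 and 10596 to 17409, did.

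Of 12 transcription factors of the hepatic growth hormone response, all listed, ethanol lowered 3 in WT mice and 3 in *Apoe* KO mice (2 without mouse 1). The shares of all genes called were 12.7% and 23.2%, so that the KO count was near its background. The list medians were −0.19 and −0.27 beside −0.01 and 0.13 for all genes. *Esr1*, the oestrogen receptor, fell in both, with log2 differences of −0.52 in WT and −0.85 in *Apoe* KO mice, and was also lower in *Apoe* KO mice when both genotypes were EtOH-fed (−0.56). Its values were 1247 to 1678 (WT) and 794 to 1147 (*Apoe* KO) in those groups, without overlap. The pioneer factors *Foxa1* and *Foxa2* fell in WT mice (−0.61 and −0.47), and *Nr3c1*, the glucocorticoid receptor, and *Cebpb* fell in *Apoe* KO mice (−0.31 and −0.72), of which *Nr3c1* was not called without mouse 1 (−0.25, adjusted p = 0.0765, limma). The other gene called between the EtOH-fed genotypes, *Cux2*, a female-specific repressor named here after its values were seen, was lower in *Apoe* KO mice (−1.33). Between the pair-fed genotypes limma called 0 factors, with 4 of 12 at an unadjusted p under 0.05, beside 19.9% of all genes.

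Genes with sex-biased liver expression, most of them under STAT5 control, were listed for each sex from general knowledge, with earlier results of these data known. *Prlr*, *Cux2*, *Tox* and *Trim24* stand on the female-biased list as well as on a list above, and *Bcl6* on the male-biased list. Of 25 female-biased genes, all listed in the table, ethanol lowered 11 and raised 2 in WT mice, and lowered 7 and raised 1 in *Apoe* KO mice, with list medians of −0.42 and −0.63. *Cyp2c40*, an arachidonic acid hydroxylase, fell in WT and *Apoe* KO mice (−1.28 and −1.11), as did the acyl-CoA thioesterase *Acot3* (−1.21 and −1.5). *Cyp3a16* fell by 3.56 in WT mice. Of 22 listed male-biased genes, ethanol lowered 7 and raised 2 in WT mice and lowered 9 and raised 1 in *Apoe* KO mice, with list medians of −0.49 and −0.56. The organic anion transporter *Slco1a1* (−1.58 and −3.17), the urinary protein gene *Mup21* (−1.17 and −1.94) and the hydrolase *Nudt7* (−0.83 and −0.72) fell in both genotypes, whereas *Gstp1* rose by 1.36 and by 1.07. Lower calls thus outnumbered higher ones in both lists and both genotypes. Among all genes 12.7% were called in WT mice (931 higher, 981 lower) and 23.2% in *Apoe* KO mice (2446 higher, 1042 lower). Outside chromosome 7, ethanol lowered 10 and raised 0 of 21 female-biased genes in WT mice. In *Apoe* KO mice it lowered 7 and raised 1 of these 21. Without mouse 1 of the EtOH-fed *Apoe* KO group, the KO counts were 9 lower and 2 higher for female-biased and 5 lower and 1 higher for male-biased genes.

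Between the pair-fed genotypes, 6 of 22 male-biased genes were higher in *Apoe* KO mice and 0 lower, 21 of 22 differences were positive and the list median was 0.72. Of 25 female-biased genes 5 were lower and 0 higher, with a median of −0.58, beside a median of −0.005 for all genes. The share of all genes called was 1.73%. *Slco1a1* was 1.96 and *Mup21* 0.86 higher, and *Cyp2b9* and *Cyp2b13*, which lie on chromosome 7 as *Apoe* does, were lower (−5.17 and −5.63). Outside chromosome 7 the female-biased count was 3 of 21. Pair-fed *Apoe* KO mouse 2 stood apart in these lists although its *Xist* of 21047 was in the range of the other mice, with *Slco1a1* at 8756 against 356 to 1276 in pair-fed WT mice. Without it, 3 male-biased genes were higher and 7 female-biased genes lower. In the axis itself, *Igf1* (19070) and *Igfals* (3125) of that mouse were the lowest of its group, and its *Ghr* and *Bcl6* were not at either end.

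For each mouse, 21 genes of each list that are neither on chromosome 7 nor among the 10 were averaged relative to the pair-fed WT mean. Pair-fed *Apoe* KO mouse 2 was at −1.69 (female-biased) and 1.5 (male-biased), and the other 4 mice of its group at −0.69 to −0.36 and at 0.14 to 1.15. EtOH-fed WT mice were at −1.17 to −0.79 and at −1.15 to −0.15, against −0.08 to 0.08 and −0.29 to 0.30 in pair-fed WT mice, so that the male-biased ranges overlapped and the female-biased ranges did not. EtOH-fed *Apoe* KO mouse 1, the one with Y-linked transcripts, was at −0.63 and −0.45, and mice 2, 4 and 5 were at −1.87 to −1.31 and at −0.38 to 0.37.

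**Figure D4:**
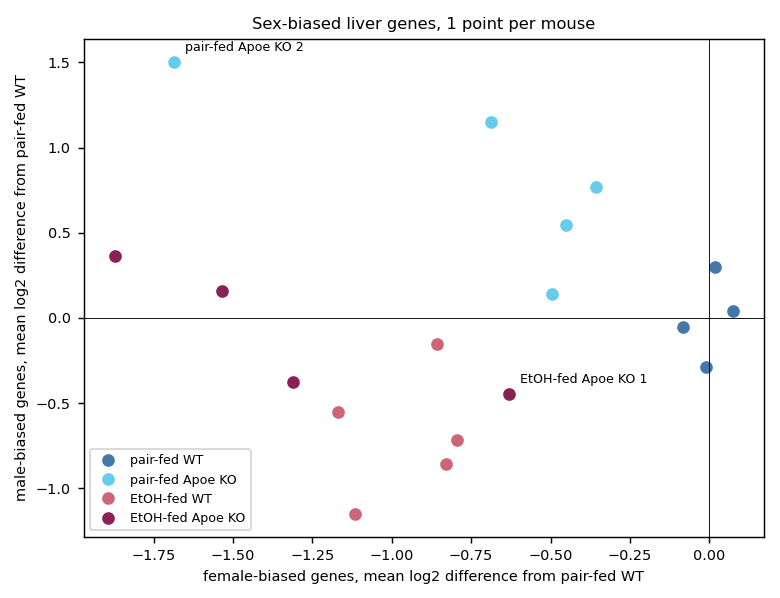
Mean log2 difference from pair-fed WT of 21 male-biased genes (vertical axis) against that of 21 female-biased genes (horizontal axis), 1 point per mouse, coloured by group. Pair-fed *Apoe* KO mice lie to the left of pair-fed WT mice and mostly above them, with mouse 2 farthest at −1.69 and 1.5, and EtOH-fed WT mice lie to the left and mostly below.

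Between the EtOH-fed genotypes, 6 female-biased genes were lower in *Apoe* KO mice and 0 higher, and 2 male-biased genes were higher and 0 lower. These counts were 6 and 3 without mouse 1, and 4.69% of all genes were called with all mice. Outside chromosome 7, where *Cyp2b9* lies, 4 of 21 female-biased genes were lower. *Selenbp2* was higher (1.38), and *Cyp2b9* (−4.99, or −4.31 without mouse 1) and *Acot3* (−1.04) were lower. The interaction called 1 female-biased gene and 0 male-biased genes by limma, beside 2.84% of all genes. Of the male-biased genes 3 of 22 had an unadjusted p under 0.05, beside 16.3% of all genes. *Mup*, *Cyp2b*, *Cyp2c* and *Cyp3a* genes have near-identical copies, so that the division of reads among them is uncertain.

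Of 14 fasting and amino acid stress genes 13 were listed. Ethanol raised 5 and lowered 1 in WT mice and raised 7 and lowered 2 in *Apoe* KO mice (7 and 3 without mouse 1), with list medians of 0.92 and 0.75. The other 7 and 4 were not called, and the shares of all genes called were 12.7% and 23.2%. *Trib3* rose by 4.37 and 3.21, *Atf3* by 3.96 and 3.33 and *Ddit3*, the stress factor CHOP, by 2.11 and 2.69, while *Foxo3* fell (−0.50 and −0.89). *Atf4* rose by 0.75 in *Apoe* KO mice. *Trib3* was the only gene of the list called between the pair-fed genotypes, 1.44 higher in *Apoe* KO mice, with 187 to 542 against 116 to 150, and so without overlap.

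Of 16 STAT3 and acute-phase genes 15 were listed, *Socs3* among them. Ethanol lowered 2 in WT mice, beside 12.7% of all genes called. In *Apoe* KO mice it lowered 5 and raised 3, beside 23.2%, or 6 and 2 with size factors and 4 and 3 without mouse 1. The IL-6 receptor gene *Il6ra* fell by 0.71 in *Apoe* KO mice, and *Saa2*, a serum amyloid with a near-identical copy, fell by 1.93 in WT mice. Between the EtOH-fed genotypes 4 were higher in *Apoe* KO mice and 0 lower, with or without mouse 1, beside 4.69% of all genes. Among the 4 were *Lcn2* (2.26), *Orm2* (1.56) and *Saa2* (2.65). Between the pair-fed genotypes limma called 0, with 5 of 15 at an unadjusted p under 0.05, beside 19.9% of all genes.

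By limma the interaction of diet and genotype called 0 genes among the partners (1, *Grb10*, without mouse 1), the IGF and insulin receptor system, the transcription factors, the stress genes and the acute-phase genes. At an unadjusted p under 0.05 it gave 6 of 14, 4 of 13, 0 of 12, 3 of 13 and 6 of 15 of them, beside 16.3% of all genes. Among the markers of other liver cells it called 3 of 6 for Kupffer cells (2 without mouse 1), 1 of 6 for infiltrating macrophages, 2 of 7 for stellate cells and fibroblasts and 1 of 5 for cholangiocytes, all of them higher, beside 2.84% of all genes. Of the list genes named above with a call between the EtOH-fed genotypes, *Htra1* alone lost it without mouse 1 (1.43, adjusted p = 0.055, limma).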

How the data were processed

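Per the labels and the methods of the study, RNA was extracted with TRIzol and selected for poly(A), and reads were processed with FastQC, Trimmomatic, HISAT2 and SAMtools on GRCm38 and counted per gene with featureCounts. Versions and annotation are not given in the sources used here. The authors deposited 1 table whose values per mouse are a signal, namely gene counts scaled to nearly equal totals (spread 0.0779%) and rounded. The scaling is not described. Their DESeq2 fold changes and p-values, in the same table, were not used. The table has 15247 lines, of which 195 repeat a gene with identical values, and each of the 15052 genes was used once. No column lacked a sample.

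Because 1 read could be sized in 8 of 18 mice only, no count test was run. With R 4.3.3, limma 3.58.1 was used with an intensity trend on log2(value + 1), fitted to all genes in the mice compared (all 18 for the interaction), with Benjamini-Hochberg adjustment over 15052 genes. Folds are on the log2(value + 1) scale. Each library was taken as 1 mouse, so p-values measure the spread between these libraries. Permutation tests used Python 3.11.15 with scipy 1.17.1, pandas 2.3.3 and numpy 2.4.6, and figures used matplotlib 3.10.9. The test was also run on simulated data. Positions and exon lengths are from GENCODE (15040 genes matched, 12 not), and promoters from RefSeq.

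The 10 genes, the lists and the tests were chosen with earlier results of these data known. From each list, genes called in a comparison were named, at most the 5 of lowest adjusted p. *Jak2* and *Cux2* were named beyond this rule, after their values were seen. The 5 genes most correlated with *Igf1* and with *Igfbp1* were also named. The alternatives comprised a pseudocount of 0.1, size factors by the median of ratios, only genes at 10 or more in each mouse, sample quality weights, a replicate block, all 4 groups in 1 fit, the study's criterion (unadjusted p under 0.05 with a log2 change beyond 1) and leaving out each mouse. Counts without pair-fed *Apoe* KO mouse 2 and outside chromosome 7, and values of list genes without EtOH-fed *Apoe* KO mouse 1, were added after seeing the data.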

Additional observations from a re-analysis of the deposited data

Results flagged for a closer look

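In 40 groups of 4 or 5 mice (10 genes in 4 groups), the mouse at either end was compared with the rest by Dixon's ratio of its gap to the range, which chance takes past the critical value in about 1 of 20 groups, or 2 here. There were 4 such cases. *Socs2* of pair-fed WT mouse 3 (1800 against 3676 to 3773, ratio 0.965) was low, and *Igfals* of the same mouse (4339 against 3671 to 3777, ratio 0.830) was high. *Igfbp1* of pair-fed WT mouse 1 (6730 against 2834 to 3152, ratio 0.877) was high, as was *Stat5a* of EtOH-fed WT mouse 1 (630 against 431 to 474, ratio 0.750).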

How the results depend on the processing

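Of the recomputed log2 differences, 758 kept their direction and their side of the threshold, 29 passed it, 11 lost it and 32 changed sign. By the study's criterion the all-gene counts were 826 (WT ethanol), 1265 (KO ethanol), 419 (pair-fed genotypes) and 1121 (interaction), and 0 of the 10 genes passed in KO mice given ethanol. With size factors 2 of the 10 were called with ethanol in WT and 4 in *Apoe* KO mice. Over all 15052 genes this setting called 1005 higher and 956 lower in WT mice and 1656 and 1607 in *Apoe* KO mice. *Stat5b* then changed sign in KO mice given ethanol (−0.092), as did *Igfbp1* between EtOH-fed genotypes (−0.092) and *Socs2* in the interaction (−0.079). Keeping only genes at 10 or more in each mouse gave 3 calls among the 10 in WT mice given ethanol. The added calls were *Igfals* (−0.463, adjusted p = 0.0476, limma) and *Socs2* (−0.929, adjusted p = 0.047, limma). With all genes kept, their adjusted p was 0.05181 and 0.0511 (limma), so that both moved only slightly across the threshold. Quality weights gave 4 calls among the 10 in WT mice given ethanol and 456 genes between pair-fed genotypes. With these weights *Cish* was at −0.174 in pair-fed, and *Igfbp1* at −0.212 and *Igf1* at 0.033 in EtOH-fed genotypes. A pseudocount of 0.1 and a fit on all 4 groups each called 0 of the 10 between pair-fed genotypes. The cause of these changes was not tested.

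Mouse numbers are shared between groups, but same-numbered mice did not deviate together in every pair (correlations from −0.284 to 0.313), so the numbers were not taken to pair them, and the labels do not say what a number marks. Between EtOH-fed genotypes 3 of 4 numbers correlated at 0.188 to 0.313 and 1 at −0.0449. The replicate block kept only numbers present in every group compared. It thus left out EtOH-fed WT mouse 5 (WT ethanol) and pair-fed *Apoe* KO mouse 3 (KO ethanol). Between genotypes it left out pair-fed *Apoe* KO mouse 5 (pair-fed) and EtOH-fed WT mouse 3 (EtOH-fed). With the replicate block 4 of the 10 were called with ethanol in each genotype, 2 between EtOH-fed genotypes in place of 0 (*Igfals* −0.55, *Igfbp3* 0.84), and 392 and 1083 genes between pair-fed and EtOH-fed genotypes, with *Cish* at −0.116 in pair-fed mice. For ethanol with the limit of 10, the weights or the block, the share of all genes called is not given here. Whether these counts of the 10 exceed that share is thus not shown. They are not read as results, nor as a stronger response of the axis.

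Leaving out 1 mouse at a time moved the calls among the 10 to 0 to 4 (WT ethanol), 2 to 4 (KO ethanol) and 0 to 1 (pair-fed genotypes). It moved all-gene counts to 1186 to 1904 (WT ethanol), 2637 to 3320 (KO ethanol), 73 to 670 (pair-fed), 327 to 620 (EtOH-fed) and 167 to 561 (interaction). The all-gene counts moved by over 1.5 times without pair-fed WT mouse 2 or 4 (WT ethanol), without any mouse but WT mouse 1 and KO mouse 2 (pair-fed), without EtOH-fed WT mouse 1 or KO mouse 4 or 5 (EtOH-fed), and without these 5 or pair-fed KO mouse 3 (interaction). Differences that crossed 0 were *Stat5b* (KO ethanol, −0.036 to 0.106), *Cish* (pair-fed, −0.118 to 0.211), *Ghr* (EtOH-fed, −0.104 to 0.028), *Igf1* (EtOH-fed, −0.192 to 0.072), *Igfbp1* (EtOH-fed, −0.409 to 0.359), and in the interaction *Socs2* (−0.185 to 0.337), *Stat5b* (−0.118 to 0.025) and *Bcl6* (−0.027 to 0.481). With 4 or 5 mice a group, the widest 95% interval ran from −2.63 to 0.12 (*Igfbp1*, interaction).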

Other observations

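The comparison of EtOH-fed with pair-fed WT mice also called both Y-linked transcripts listed, at low values in mice labelled female. The source of these reads, and of their difference between the 2 groups, was not tested. *Ddx3y* was at 30 to 47 in pair-fed WT and at 2 to 14 in EtOH-fed WT mice (log2 difference −2.27), and *Eif2s3y* at 31 to 40 and at 4 to 33 (−1.84). *Xist* was not called, with 17515 to 30379 and 17186 to 27076.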
